A study of Rattus norvegicus with 9 samples.

Results

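Rab GTPases are small proteins that switch between a GTP-bound form, which recruits effectors to a membrane, and a GDP-bound form, which a chaperone lifts off it. Each Rab marks a step of membrane traffic, so that the family labels early endosomes, recycling endosomes, late endosomes and lysosomes, the Golgi and the carriers that fuse with the cell surface. In dendrites these steps bring receptors and membrane to spines, take them back up, and send them on to recycling or degradation. The messenger RNAs of this family were followed here in dendrites cut from cultured rat neurons.

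Members were chosen by name alone: a gene counted if its symbol was Rab followed by a number and at most 1 letter, and if at least 1 probe set on the array named that gene and no other. The rule found 56 Rab genes among 14217 measured genes, with 97 of the 20826 probe sets that name 1 gene. Of the 56 genes, 29 had 1 probe set and 27 had several, up to 5. A gene's value on an array was the median of its probe sets, in log2 units of the RMA signal.

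The arrays held RNA from dendrites of Sprague-Dawley hippocampal neurons, plated from rat embryos at embryonic day 19 and kept for 14 days in culture, with no treatment. A pool held 100, 200 or 400 dendrites, and there were 3 pools of each size, labelled as biological replicates and as pyramidal neurons. Each pool was gathered from several neurons after the soma had been drawn off with a glass pipette. The study states that axons could not be told from dendrites by shape, so that the pools may hold some axonal RNA. It adds that RNA from the soma may be present too. In such pools, fewer neurites with an RNA and less RNA per neurite cannot be told apart.

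The 9 arrays correlated with each other at a Pearson r of 0.678 to 0.877 over probe sets (36 pairs), and the pair of lowest r was 400-dendrite replicate 1 with 100-dendrite replicate 1. Among markers of pyramidal neurons, Neurod2 stood at the 99.9th and Nrgn at the 99.4th percentile of all genes, while Camk2a stood at the 26.3rd and Tbr1 at the 1.39th. Of 11 interneuron markers, 5 were above the 50th percentile, led by Calb2 at the 88.3rd, while Gad1, which makes GABA, stood at the 10.8th. Markers of glia and vessels were read as well. The mean of 9 astrocyte markers was 7.95 to 8.68 on the arrays of 100, 7.12 to 8.54 on those of 200 and 7.33 to 8.44 on those of 400 dendrites. The mean of 10 fibroblast and mural markers was 6.98 to 7.60, 7.28 to 7.44 and 6.88 to 8.77 in the same order. The median percentile was 77.1 for the astrocyte list, 28.6 for the fibroblast and mural list and 28.0 for 10 microglia markers. For 11 oligodendrocyte lineage markers it was 58.4, with 7 above the 50th percentile. For 11 pyramidal neuron markers it was 75.6, with 8 above the 50th. For 53 genes known from other organs it was 31.4. The mean of 9 endothelial markers was 8.10 to 8.29, 8.08 to 8.29 and 8.20 to 8.33. Their median percentile was 53.0, with 5 of 9 above the 50th, and it was 46.1 by the brightest probe set of each gene. The highest were Vwf at the 99.8th and Esam at the 98.6th percentile, and the lowest was Tek at the 8.47th. The part of these cells in the Rab signals was not tested.

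As a family, the Rab genes ranked above the middle of the array. A gene's rank is given as a percentile among all genes, from its median rank over the 9 arrays, where 50 is the middle and 100 the brightest. The median Rab gene stood at the 67.1st percentile, against 49.9 for the other genes, and 41 of 56 Rab genes (73.2%) were above the 50th percentile. On single arrays the Rab median ran between 59.0 and 67.1. A list of 53 genes known from other organs had a median of 31.4, and its upper quartile reached 60.3. Of the Rab genes, 31 of 56 lay above that quartile, as did 39.7% of all genes. Ranks are ranks of signal, which also depends on how well each probe binds, and do not order genes by amount of RNA.

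Few Rab genes reached the very top. In the top 5%, which held 712 genes, there were 3 of 56 (5.36%, against 5.01% of all genes): Rab8a at the 98.5th, Rab7b at the 97.9th and Rab1a at the 95.3rd percentile. Rab31, at the 93.8th, was the first outside. None was in the lowest 5%. Across arrays, 19 Rab genes lay above the 50th percentile on all 9, 5 lay below it on all 9, and the remaining 32 were found on both sides. Of all 14217 genes, 3165 lay above it and 3099 below it on all 9, so that most genes were found on both sides too.

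**Figure D1:**
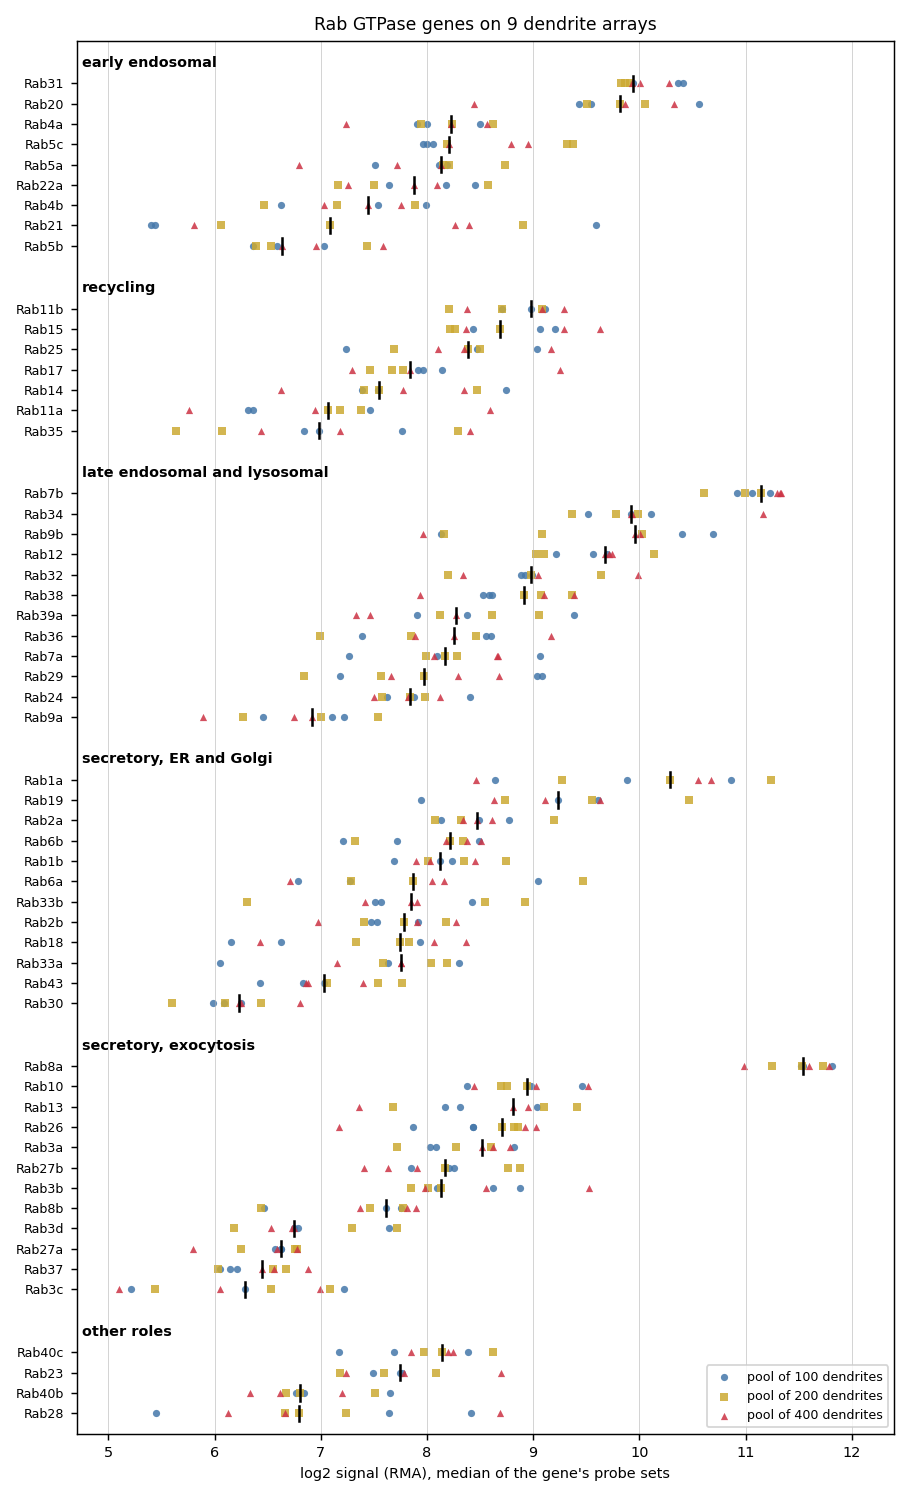
Log2 signal of the 56 Rab genes on each of the 9 arrays, grouped by role and ordered by rank within a role (points: single arrays, by pool size; black bar: median of 9 arrays). Rab8a and Rab7b stayed above 10.6 on every array, while Rab21 ran from 5.40 to 9.59.

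Rab8a, which drives exocytic carriers to the plasma membrane and takes part in bringing glutamate receptors to spines, was the highest ranked member. Its signal was 11.81, 11.54 and 11.52 in pools of 100 dendrites, 11.25, 11.73 and 11.53 in pools of 200, and 10.98, 11.60 and 11.78 in pools of 400. It averaged 11.53 ± 0.27 (SD, n = 9), the pool sizes overlapped, and its rank did not leave the 97.2nd to 99.1st percentile. Rab10, another Rab of surface delivery, followed in this group at 8.91 ± 0.40 (SD, n = 9) and the 84.9th percentile. Its value lay between 8.38 and 9.52.

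The 12 Rab genes of regulated secretion and exocytosis had a median percentile of 68.1, and 8 of them were above 50. Rab3a, the main Rab of synaptic vesicles, had 8.82, 8.09 and 8.03 in pools of 100, 7.72, 8.28 and 8.61 in pools of 200, and 8.78, 8.52 and 8.62 in pools of 400. It was above the 50th percentile on all 9 arrays, with a rank of 76.5. Its paralogs spread widely: Rab3b stood at the 67.4th, Rab3d at the 24.8th and Rab3c at the 13.6th percentile. Rab27b, which docks secretory vesicles at the surface, stood at 68.7, while Rab27a, known for melanosome transport, stood at 21.4 and was below 50 on every array. Rab37, described in granule secretion by mast cells, lay at 16.3 and also below 50 on every array.

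Among the 12 Rab genes of late endosomes and lysosomes, the median percentile was 77.5 and 11 lay above 50. Rab7b, which acts between endosomes and the trans-Golgi network, had 11.06, 11.23 and 10.92 in pools of 100, 10.997, 11.14 and 10.61 in pools of 200, and 11.33, 11.29 and 11.33 in pools of 400. Its SD of 0.24 was the second smallest of the family, and the 3 pools of 400 lay above the rest in this median of 2 probe sets. The brighter probe set had 12.75, 12.21 and 12.59 in pools of 400 and 12.63, 12.56 and 12.58 in pools of 100. The dimmer had 9.902, 10.37 and 10.07 in pools of 400 and 9.48, 9.906 and 9.26 in pools of 100. Both thus overlapped. Rab7a, which carries cargo from late endosomes to lysosomes, was less steady, from 7.26 to 9.06, and ranked 68.7. Rab34, linked to the placement of lysosomes, ranked 93.7, and Rab12, which sends transferrin receptor for degradation, 91.4. Both came from probe sets that disagreed, as described below. The lowest was Rab9a, which returns mannose 6-phosphate receptors to the Golgi, at 29.6 and below 50 on all 9 arrays. Its paralog Rab9b ranked 93.4 but ran from 7.96 to 10.70.

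The 9 early endosomal Rab genes had a median percentile of 67.2, with 6 above 50. Rab31, of the Rab5 and Rab22 branch, had 9.94, 10.37 and 10.41 in pools of 100, 9.82, 9.91 and 9.86 in pools of 200, and 10.28, 10.002 and 9.93 in pools of 400. Its SD of 0.23 was the smallest of the 56. It is the SD of a median of 2 probe sets, with means of 11.60 and 8.52 and their own SDs of 0.39 and 0.38. Rab20, linked to phagosomes, followed at 92.8, between 8.44 and 10.56. The Rab5 genes, which drive the fusion of early endosomes, did not stand together: Rab5c ranked 68.9, Rab5a 67.2 and Rab5b 21.2. Rab4a, of fast recycling back to the surface, ranked 69.4 with values from 7.24 to 8.62.

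Rab21, which binds integrins during their uptake, varied most. In pools of 100 it had 9.59, 5.40 and 5.44, in pools of 200 it had 6.06, 8.91 and 7.08, and in pools of 400 it had 5.81, 8.40 and 8.26. Every pool size thus held both a dim and a bright array, its SD was 1.61, and its rank ran from the 3.37th to the 90.6th percentile. Next came Rab9b with an SD of 1.06 and Rab28, a Rab of cilia, with 1.04. Rab21, Rab9b and Rab28 were each read by 1 probe set, while a median of several can vary less than each of them. Rab8a, also with 1 probe set, had an SD of 0.27. The median SD of a Rab gene was 0.51 over the 9 arrays, against 0.55 for all genes.

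For the 7 Rab genes of recycling endosomes the median percentile was 57.7, with 4 above 50. Rab11b and Rab11a, the central Rabs of the recycling endosome that feeds spines, fell far apart in rank. Rab11b ranked 85.4 and had 9.11, 8.71 and 8.97 in pools of 100, 8.20, 8.71 and 9.08 in pools of 200, and 9.29, 9.08 and 8.37 in pools of 400. Rab11a ranked 33.4, from 5.76 to 8.59, and was above the 50th percentile on 1 of 9 arrays. Rab15, which acts at early and recycling endosomes, ranked 80.5. Rab17, a Rab of polarised cells that in mouse hippocampal neurons is found in dendrites, ranked 57.7. The lowest was Rab35, of fast recycling, at 31.6, with values from 5.64 to 8.40.

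The 12 Rab genes of the endoplasmic reticulum and Golgi had a median percentile of 59.1, with 10 above 50. Rab1a, which moves cargo from the endoplasmic reticulum to the Golgi, reached the top 5% only on 4 of 9 arrays. It had 8.64, 10.86 and 9.89 in pools of 100, 9.27, 10.28 and 11.24 in pools of 200, and 8.46, 10.68 and 10.55 in pools of 400. Every pool size held arrays more than 1 log2 unit apart. Rab19, a Golgi Rab, ranked 88.7, and Rab30, also of the Golgi, ranked lowest of all 56, at 12.1, between 5.60 and 6.80.

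Outside these roles, Rab40c, an adaptor of a ubiquitin ligase, ranked 67.1, and Rab23, which restrains Hedgehog signalling, 55.6. Rab40b stood at 26.1 and Rab28 at 25.6. Taking secretion as a whole, the 24 Rab genes of both secretory roles had a median of 62.7. No role was tested against another, and the members of a role differed from each other by more than the role medians did.

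The order of the Rab genes was partly shared between arrays. Over the 56 genes, the Spearman correlation between 2 arrays was 0.54 to 0.84 with a median of 0.71, while all genes gave 0.62 to 0.84 with a median of 0.75. These are correlations across genes, which are not independent replicates. Replicate 1 of the 400-dendrite pools held the lowest value of 13 of 56 Rab genes (23.2%, against 15.1% of all genes), and replicate 2 of the same size held the highest value of 11 (19.6%, against 10.4%).

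How a Rab gene ranked depended on which probe set read it. For the 27 genes with several probe sets, the mean signal of the brightest and dimmest differed by 0.32 to 4.99 log2 units, with a median of 2.21 against 1.54 over the 4525 such genes on the array. The gap was over 1 log2 unit in 21 of 27 (77.8%), against 67.1% of all genes.

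Rab34 had the widest gap. Its brighter probe set gave 12.84, 12.42 and 12.37 in pools of 100, 12.42, 12.64 and 12.36 in pools of 200, and 12.56, 12.31 and 12.22 in pools of 400, an SD of 0.19. The dimmer one averaged 7.47 ± 1.04 (SD, n = 9) and was between 6.32 and 7.62 on all arrays but 1, 400-dendrite replicate 2, where it was 10.02. Rab12 followed with means of 11.79 and 7.29, Rab11b with 11.03 and 6.65, and Rab27b with 10.29 and 5.95. The 5 probe sets of Rab5b had means of 10.18, 7.91, 6.56, 6.54 and 6.38, so that its low rank of 21.2 came from the 4 dimmer ones. Rab5a likewise had means of 9.72 and 6.18. By contrast, Rab11a, with means of 7.20 and 6.81, and Rab27a, with 3 probe sets from 6.47 to 6.79, were dim by every probe set.

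**Figure D2:**
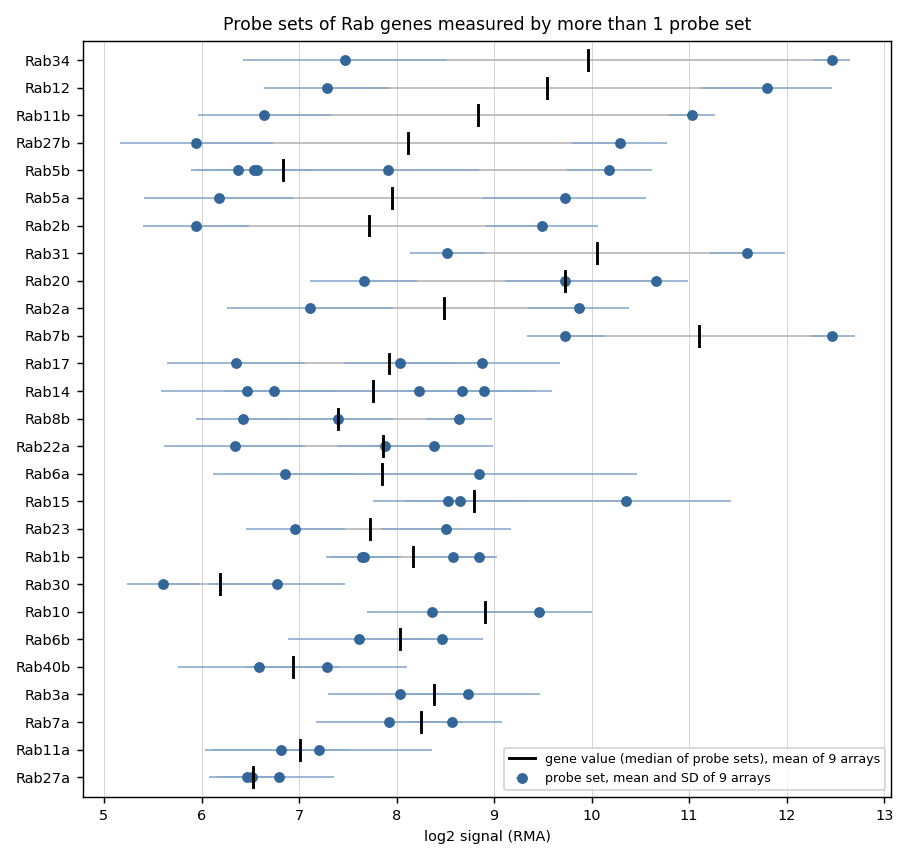
Mean log2 signal of each probe set (points, with the SD of 9 arrays) for the 27 Rab genes read by several probe sets, ordered by the gap between the brightest and the dimmest. The black bar is the gene value; the gap was 4.99 for Rab34 and 0.32 for Rab27a.

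When each gene was read by its brightest probe set instead, with all genes treated so, 5 Rab genes were in the top 5%: Rab7b at the 99.3rd percentile, Rab34 at 99.1, Rab31 at 97.2, Rab12 and Rab8a at 96.8. Rab1a then ranked 91.1, Rab11b 94.8, Rab27b 91.5 and Rab5b 90.7. This reading favours genes with several probe sets, which were 27 of 56 Rab genes and 4525 of all 14217 genes. Rab1a and Rab8a have 1 probe set, so that their values stayed the same and only their ranks changed. The recycling Rabs had a median of 77.1 on this reading. Rab8a and Rab7b were the only members in the top 5% both by the median of their probe sets and by the brightest one.

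Whether the Rab signals depended on the amount of starting material was read from the pool sizes. No gene passed the test, Rab or other. With limma over all genes and Benjamini-Hochberg adjustment, 0 of 56 Rab genes and 0 of 14217 genes passed an adjusted p of 0.05 between 400 and 100, between 200 and 100, between 400 and 200 dendrites, or along the slope per doubling of the pool. The background share called was 0% in each comparison. The adjusted p of every Rab gene was 0.999 or higher. At an unadjusted p under 0.05, limma gave 0 Rab genes for 400 against 100 (2.41% of all genes), 1 for 200 against 100 (3.03%), 1 for 400 against 200 (2.30%) and 0 for the slope (2.73%). The methods' t-test gave 2, 3 and 1 Rab genes for the same pairs of pool sizes before adjustment, beside 2.87%, 3.43% and 2.88% of all genes. With 3 pools a size, these p values measure the spread between the pools only.

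The intervals show how closely the difference of a single gene was estimated. They are not adjusted for the number of genes tested and do not give the difference that could have passed. The median standard error of a Rab difference was 0.44 log2 units, and the median 95% interval reached 0.96 to either side, close to a doubling. Of the 56 genes, 34 were higher in pools of 400 than of 100 (60.7%, against 51.5% of all genes), 29 in 200 than in 100 (51.8%, against 50.1%) and 27 in 400 than in 200 (48.2%, against 51.1%). The median Rab difference was 0.12, 0.00 and -0.01, and the median of all genes was 0.02, 0.00 and 0.01. Leaving out 1 array moved the Rab median to between 0.05 (without 100-dendrite replicate 1) and 0.22 (without 400-dendrite replicate 1) for 400 against 100. For 200 against 100 it then lay between -0.06 and 0.04, and for 400 against 200 between -0.09 (without 400-dendrite replicate 3) and 0.11 (without 400-dendrite replicate 1), so that neither sign held. The 3 comparisons share pools and are not independent of each other.

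**Figure D3:**
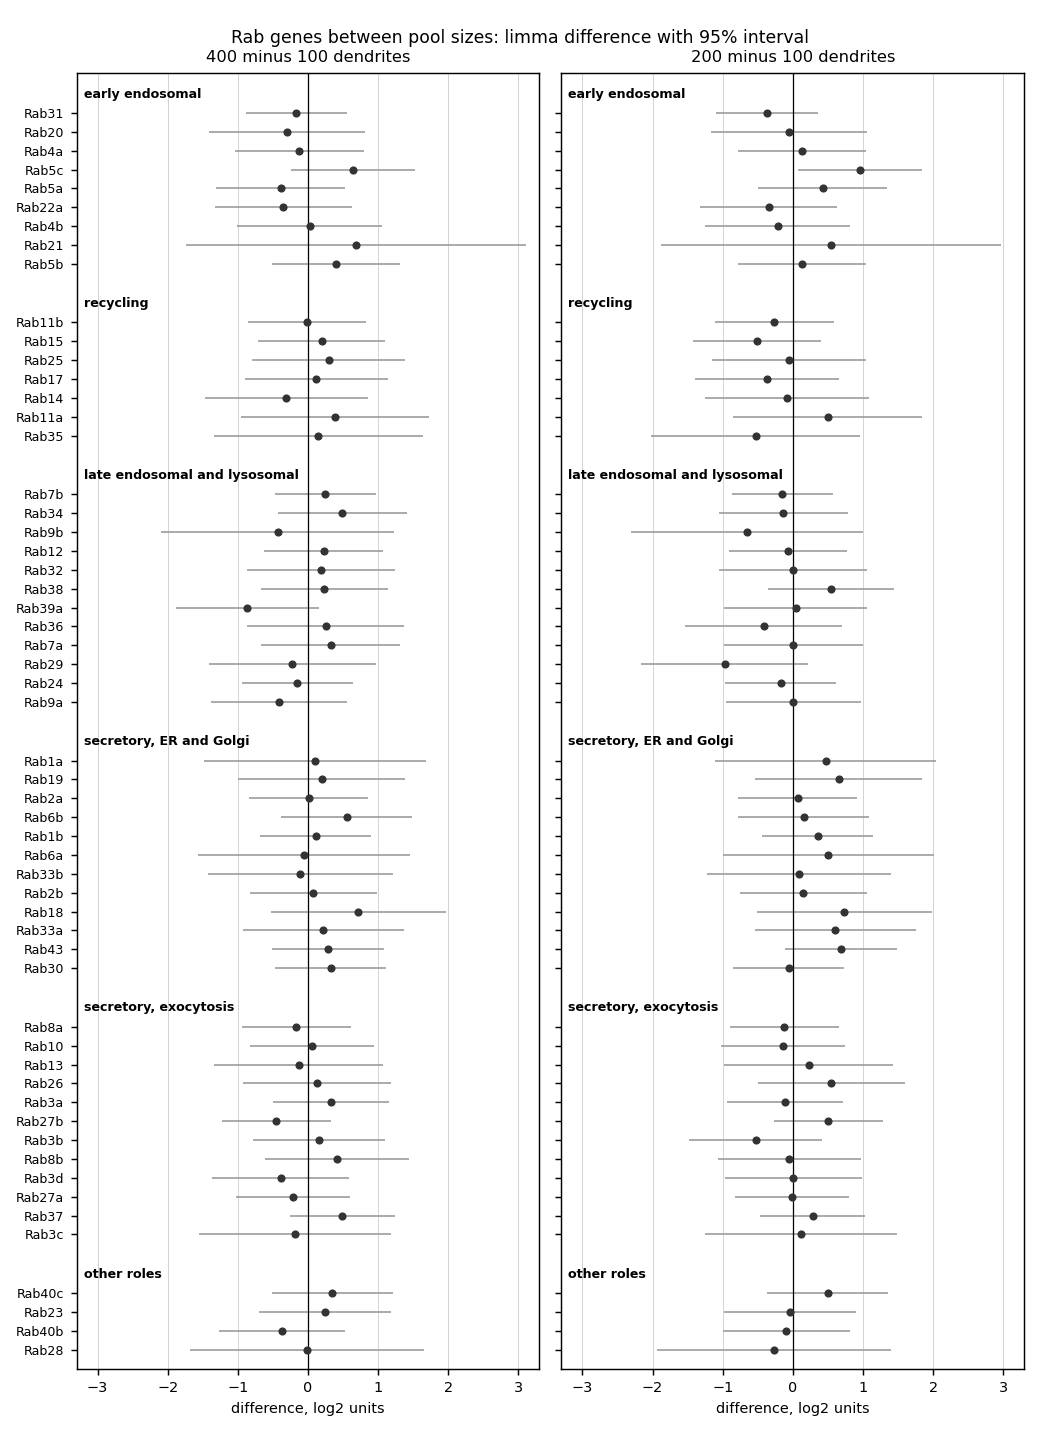
Difference in log2 signal with its 95% interval from limma for each Rab gene, in 400 minus 100 (left) and 200 minus 100 dendrites (right), grouped by role. All 56 intervals of the left panel include 0, and in the right panel that of Rab5c, from 0.07 to 1.85, does not.

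Rab5c, the early endosomal Rab, had the smallest unadjusted p in the comparison of 200 with 100 dendrites. It had 9.38, 8.19 and 9.32 in pools of 200 and 7.96, 7.999 and 8.06 in pools of 100, so that the groups did not overlap. The difference was 0.96 (SE 0.41, 95% interval 0.07 to 1.85, unadjusted p = 0.0374 and adjusted p = 0.9999 by limma). In pools of 400 it had 8.79, 8.96 and 8.21, a difference from 100 of 0.64 (SE 0.41), again with no overlap. Leaving out 1 array gave 0.75 to 1.34 for 200 against 100, with an unadjusted p of 0.00716 to 0.127 in limma. Rab5a and Rab5b, its paralogs, differed by 0.43 and 0.12 between 200 and 100, and both intervals include 0.

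Rab27b was lower in pools of 400, with 7.41, 7.63 and 7.91 against 8.17, 8.77 and 8.87 in pools of 200. The groups did not overlap, and the difference was -0.96 (SE 0.36, 95% interval -1.73 to -0.18, unadjusted p = 0.0199, adjusted p = 0.999 by limma). Its dimmer probe set differed by -1.34 and its brighter by -0.58 (limma, unadjusted p = 0.0149 and 0.192). The brighter one overlapped, with 9.08, 10.19 and 10.34 in pools of 400 and 10.51, 10.57 and 10.26 in pools of 200. The dimmer one stood at only the 7.13th percentile of probe sets. Pools of 100 had 8.26, 7.85 and 8.21, between the other sizes. The difference was -0.82 to -1.17 when 1 array was left out, and its unadjusted p in limma then ran from 0.0116 to 0.0711.

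Rab39a, a late endosomal Rab, had the smallest p in 400 against 100 dendrites, at -0.87 (SE 0.47, unadjusted p = 0.0879, adjusted p = 0.999 by limma). Its values were 7.47, 7.33 and 8.27 in pools of 400 and 7.91, 8.37 and 9.39 in pools of 100, which overlapped. In 200 against 100, Rab43, a Golgi Rab, differed by 0.69 and Rab29, which recruits the kinase LRRK2, by -0.97. In 400 against 200, Rab5a differed by -0.82, Rab15 by 0.70 and Rab3b by 0.69. None of these had an interval that left out 0.

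Groups without overlap were counted too. Between 400 and 100 dendrites, Rab37, Rab5c and Rab7b were higher in every pool (3 of 56, against 3.67% of all genes) and Rab3d lower (1 of 56, against 2.58%). Between 200 and 100, Rab26, Rab38, Rab5c and Rab43 were higher (4, against 4.05%) and Rab31 and Rab17 lower (2, against 3.75%). Between 400 and 200, Rab31 and Rab7b were higher (2, against 3.59%) and Rab5a and Rab27b lower (2, against 3.18%). Rab7b shows how small such a gap can be: 11.33, 11.29 and 11.33 in pools of 400 and 11.06, 11.23 and 10.92 in pools of 100, a difference of 0.25 (SE 0.33). Neither of its 2 probe sets kept these sizes apart by itself.

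**Figure D4:**
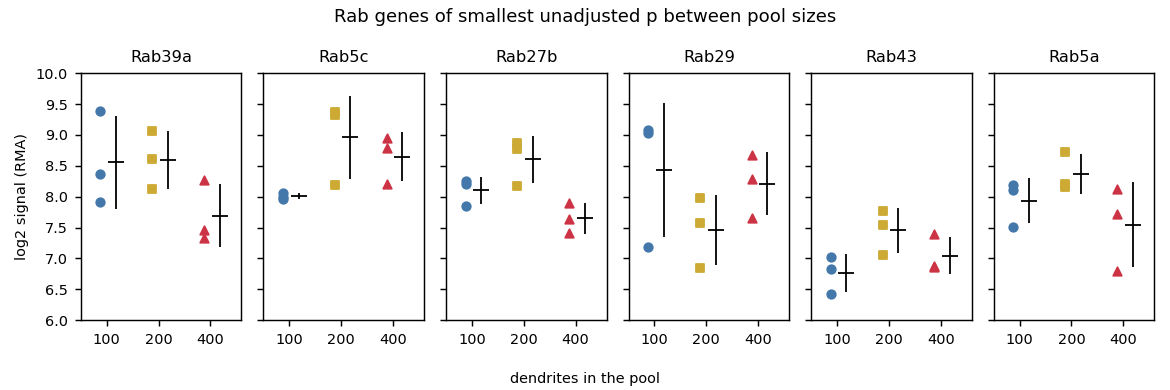
Log2 signal of 6 Rab genes with small unadjusted p by number of dendrites in the pool (coloured points: single pools; black: mean and SD of 3 pools). Rab27b lies lower in pools of 400 than of 200, and Rab5c higher in pools of 200 than of 100; neither passed the adjusted threshold.

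By role, the 12 Rab genes of the endoplasmic reticulum and Golgi were higher in 10 of 12 cases in pools of 400 than of 100, with a median difference of 0.15, and in 11 of 12 in pools of 200 than of 100, with a median of 0.41. In 400 against 200 they were higher in 2 of 12, with a median of -0.22. Of all genes, 51.5%, 50.1% and 51.1% were higher in these comparisons, in the same order. The role counts were not tested against these shares. The same pools of 200 enter the second and the last comparison with opposite sign, so that their counts are not independent. The recycling Rabs were higher in 5 of 7, 1 of 7 and 5 of 7 in these comparisons (medians 0.15, -0.26 and 0.35). The late endosomal Rabs were higher in 7, 5 and 9 of 12 (0.21, -0.10 and 0.26), the early endosomal Rabs in 4, 5 and 4 of 9 (-0.12, 0.12 and -0.01), and the exocytic Rabs in 6, 6 and 5 of 12 (-0.04, 0.00 and -0.13).

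Markers of cell types were read in the same comparisons, and none passed the adjusted threshold. The 11 interneuron markers were higher in 6, 1 and 8 (medians 0.04, -0.44 and 0.47), the 9 astrocyte markers in 3, 4 and 4 (-0.29, -0.35 and -0.23) and the 10 fibroblast and mural markers in 7, 6 and 7 (0.38, 0.15 and 0.24). The 10 microglia markers were higher in 3, 3 and 3, and the 11 oligodendrocyte lineage markers in 4, 7 and 5. The 9 endothelial markers were higher in 5, 7 and 7, and the 11 pyramidal neuron markers in 6, 7 and 5. The part of these cells in the role counts was not tested. No Rab gene of any role passed, and the counts describe 3 pools a size.

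Pools of one size also differed among themselves by as much as the sizes did. The median SD of a Rab gene between pools was 0.43 at 100, 0.44 at 200 and 0.51 at 400 dendrites, against 0.49, 0.45 and 0.52 for all genes. It was thus not smaller in the largest pools. Rab21 had an SD of 2.41 at 100 dendrites, the largest of the family, and Rab7b 0.02 at 400, the smallest. At 400 the 2 probe sets of Rab7b ran in opposite order, so that their median hid their spread.

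In 7 lists of proteins that switch, carry or answer to Rabs, 139 genes were measured. Their median percentile was 48.7, 64 were above 50 and 8 (5.76%) were in the top 5%, which was not tested against the Rab genes. Exchange factors, which load Rabs with GTP, had a median of 49.0 over 40 genes, and 5 were in the top 5%. Their brightest were Dennd1c, a DENN-domain exchange factor, at 99.4 (11.94 ± 0.29) and Dennd2d, another of that family, at 98.8 (11.68 ± 0.18, SD, n = 9 each). GTPase-activating proteins, which switch Rabs off, had 55.8 over 30 genes, led by Tbc1d2, which acts on Rab7, at 99.0 (11.85 ± 0.18, SD, n = 9) and Tbc1d22b at 94.0. The 5 genes of prenylation and membrane extraction had a median of 48.3, or 80.5 by the brightest probe set of each gene. Rabggtb, the catalytic subunit of the enzyme that adds the lipid anchor, ranked 88.3, and Rabac1, a Rab acceptor in Golgi membranes, 71.6. Rabggta, the other subunit, ranked 48.3, Gdi2, which extracts Rabs from membranes, 47.8, and Chm, the escort protein of prenylation, 4.751.

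Effectors were described by the step they serve. Those of early endosomes had a median percentile of 33.9 over 13 genes, and the highest were Pik3r4, a subunit of the endosomal PI3-kinase, at 77.3 and Vps8, of the CORVET tether, at 71.9. Recycling effectors had 49.8 over 15, with Myo5a, a myosin motor, at 94.7 (10.03 ± 0.67, SD, n = 9) and Ehd1, which cuts recycling tubules, at 88.6. Late endosomal effectors had 46.6 over 15, with Plekhm1, a Rab7 effector in lysosome fusion, at 96.6 and Rabepk, which binds Rab9, at 91.9. Secretory effectors had 48.0 over 21, and Bicd2, the adaptor that joins Rab6 vesicles to dynein, stood far above the rest at 99.4 (12.10 ± 0.23, SD, n = 9), ahead of Uso1, a Golgi tether bound by Rab1, at 75.5.

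None of the 139 partners passed the adjusted threshold in any comparison of pool sizes by limma. At an unadjusted p under 0.05 there were 1 of 139 for 400 against 100 (0 higher, 1 lower), 4 for 200 against 100 (3 higher, 1 lower) and 2 for 400 against 200 (0 higher, 2 lower). These are 0.719%, 2.88% and 1.44% of the partners, beside 2.41%, 3.03% and 2.30% of all genes. The smallest was Optn, an effector of Rab8, which was 1.17 higher in pools of 200 than of 100 (unadjusted p = 0.0123, adjusted p = 0.9999 by limma).

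Among 2 other families of small GTPases, the Ras genes had a median percentile of 49.9 over 22 genes and the Arf genes 45.1 over 16, beside 67.1 for the 56 Rab genes. The share above 50 was 73.2% for Rab and 43.8% for Arf genes, and 11 of 22 Ras genes were above 50. The difference between families was not tested, and it moved with the choice of probe set. By the brightest probe set of each gene, the Arf median was 60.1, with 9 of 16 above 50. The Ras median was then 47.8, with 10 of 22 above 50. The medians of the Rab roles then lay between 62.9 and 77.1, except for 51.2 over the 4 genes outside these roles. Their highest members were Arf1 of the Golgi coat at 96.7 with its paralog Arf3 at 93.2, and Rheb, which switches on mTORC1, at 93.1 with Rap1a, of cell adhesion, at 88.7.

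**Figure D5:**
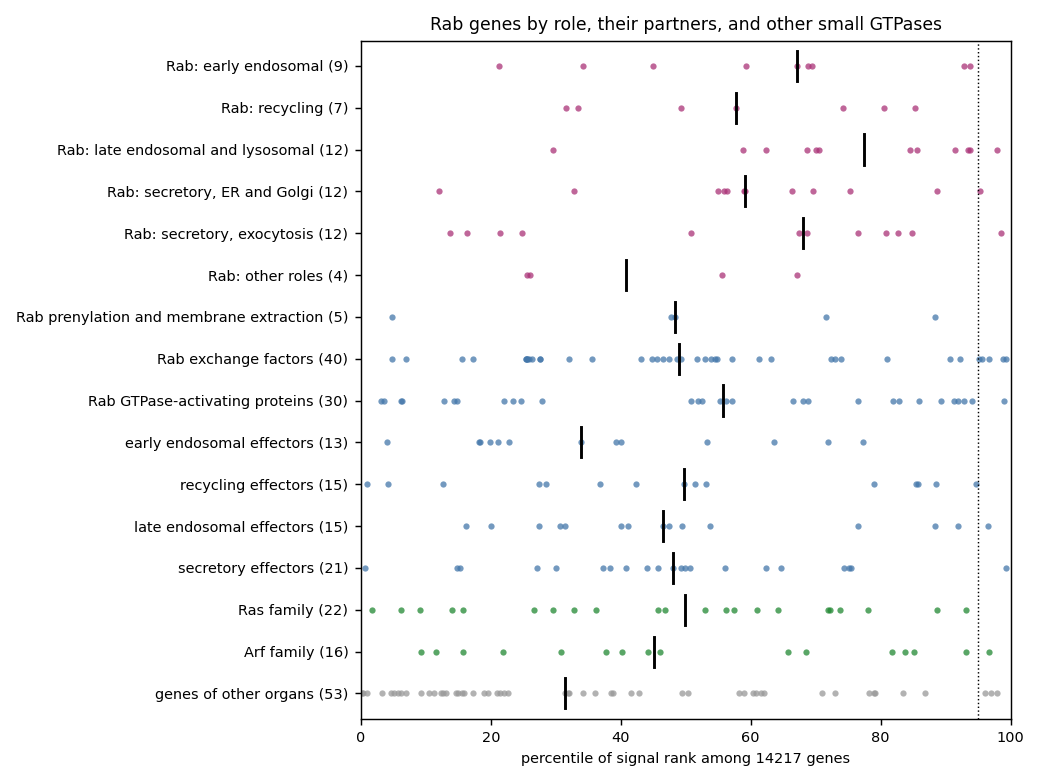
Percentile of signal rank among all genes (points: single genes; black bar: median of the list; dotted line: the 95th percentile) for the Rab genes by role, lists of their partners, the Ras and Arf families and genes of other organs. Medians ran from 77.5 for late endosomal Rabs to 31.4 for genes of other organs.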

How the data were processed

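RNA of 9 pools of rat dendrites was measured on Affymetrix arrays, 3 pools each of 100, 200 and 400 dendrites. It went through 3 rounds of linear amplification, which favours transcript ends. The authors made the deposited log2 values with RMA 2.0, which corrects background, forces all arrays to one distribution and summarises probes. The median centring and percentile scaling of the methods are not in them (array medians 7.46 to 7.53). Equal distributions hide any difference in total RNA, and the number of arrays limits the precision.

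Of 31099 probe sets, 57 controls were left out, and 20826 named 1 gene. The platform's gene table gave names, with symbols brought up to date by Entrez ID (no Rab symbol changed). Probe sets that name several genes, 3 of them with a Rab gene, were not used. Gene values were medians of probe sets.

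Pool sizes were compared with limma 3.58.1 (R 4.3.3) in 1 model of all genes and 9 arrays, two-sided, adjusted by Benjamini-Hochberg, and tested on simulated data. Percentiles used Python 3.11.15 with numpy 2.4.6 and pandas 2.3.3. Alternatives covered normalization, scaling, a filter on dim genes, probe set choice, moderation, array weights, replicate block, the methods' t-test and leaving out each array. Named genes were, per role, the 2 highest and the lowest, those of smallest p, extreme SD or widest probe set gap, those at the top 5% line, and Rabs with a textbook role in dendrites or synapses. The members and lists were chosen with earlier results of these data known. No sequences or genome positions are given.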

Additional observations from a re-analysis of the deposited data

Results flagged for a closer look

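In 2 of the 56 Rab genes (3.57%, against 9.21% of all 14217 genes), 1 of the 9 arrays stood apart from the others by Dixon's criterion, taken over the 9 arrays together since pool sizes of 3 are too small for it. Chance alone sets apart about 1 in 20 such groups. Rab34 was at 11.16 in 400-dendrite replicate 2, while the other 8 arrays had 9.37 to 10.11. Its dimmer probe set carried this, at 10.02 on that array. Rab17 was at 9.25 in 400-dendrite replicate 1, against 7.29 to 8.14 on the others, and 2 of its 3 probe sets were highest there (10.47 and 9.25).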

How the results depend on the processing

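No Rab gene passed under any of the alternatives in any comparison. The 265 differences of single genes that were followed came from the Rab genes of smallest p in each comparison, and all kept their side of the threshold. With adjusted p of 0.999 or higher in the main fit, this could hardly come out otherwise and says little. At an unadjusted p under 0.05, leaving out 1 array gave 0 to 2 Rab genes for 400 against 100, 0 to 2 for 200 against 100 and 0 to 4 for 400 against 200 dendrites (4 without 400-dendrite replicate 3, beside 2.78% of all genes). The shares of all genes were 2.24% to 3.64%, 2.58% to 5.13% and 2.03% to 4.36%. Array weights gave 4.92%, 4.36% and 5.57% of all genes, more than the 2.41%, 3.03% and 2.30% without. Replicates of the same number did not deviate together (r -0.19 to 0.09, 9 pairs), and the replicate block gave 0 Rab genes past the threshold. Ranks moved with the choice of probe set. With the probe set of highest mean, 5 Rab genes were in the top 5%, and the medians were 77.1 for recycling and 71.6 for secretory Rabs. Over all probe sets, 7 of 97 were in the top 5% and 63 above the 50th percentile, with medians of 61.6 for early endosomal and 72.6 for recycling Rabs. The other 84 values of lists stayed within the limit set, which was the spread between arrays for medians and a ratio to the main count for counts. Of 408 percentiles of single genes, 14 moved by more than their spread between arrays, such as Rab5b, at 48.3 by the mean of its probe sets. Signal over background is not given by these values, so a dim Rab gene could not be called absent.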

Other observations

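Probe sets could be split by the form of the accession they were designed from, an expressed sequence tag or a full mRNA record, a split chosen after the values were seen. In 14 Rab genes with both kinds, the tag-based probe sets were brighter in 9, with a median difference of 1.35 log2 units, and by over 2 units in 6 (42.9%). Over the 982 genes with both kinds, tag-based probe sets were brighter in 557 (56.7%), with a median of 0.33, and by over 2 units in 17.9%. The difference was 4.50 for Rab12, 4.38 for Rab11b and 4.34 for Rab27b, while Rab14 ran the other way at -1.02. The share for Rab genes was not tested against that of all genes.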
